A study of Homo sapiens with 7 samples.

Results

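The K562 15 nM and 25 nM dasatinib resistant (DasR) lines were compared with the K562 10 nM DasR line, which is 3 of the 7 libraries of the study. Genes were kept with at least 10 CPM (the count divided by the library total and scaled to 1000000) in at least 2 of these 3 libraries, which left 9795 of 25702 genes. K562 is an established chronic myeloid leukemia line driven by the BCR::ABL1 fusion, and it resembles an early red cell precursor, and dasatinib inhibits the BCR::ABL1 kinase. All DasR lines came from K562 cells grown in rising concentrations of dasatinib, so the 15 nM and 25 nM lines are later steps of the escalation than the 10 nM line, and they differ from it in time in culture as well as in dose. The other 4 libraries were the drug naive line, the DMSO vehicle line and the 50 nM and 200 nM DasR lines, and they entered only where they are named. Each line was sequenced as 1 library of bulk RNA. In such data fewer cells of a type and less RNA per cell cannot be told apart, and the effects of dose, of time in culture and of the single library cannot be told apart either.

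The 10, 15 and 25 nM libraries held 27808639, 27844799 and 20059656 counts, so that 10 CPM stood for 279, 279 and 201 counts. The most abundant gene, EEF1A1, had 416026, 375559 and 274657 of these counts. The labels give the cell type as erythroblast, and each of the 12 erythroblast and K562 markers examined was kept in these lines. Their summed levels in the 10, 15 and 25 nM lines were 10130, 11540 and 8684 CPM, with HBG2 the most abundant. None of 11 T and B lymphocyte markers was kept.

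Resistance to a kinase inhibitor can come from the drug being pumped out of the cell, from more of the target kinase, or from a changed target. ABCG2 is a membrane transporter that exports many drugs, kinase inhibitors among them, and its gene lies on chromosome 4 between PKD2 and PPM1K. Leukemia cells can also carry extra copies of a chromosome stretch, and all genes on that stretch may then give more RNA. K562 cells are known to carry many copies of a joined stretch of chromosomes 9 and 22 with BCR, ABL1 and NUP214.

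With 1 library at 10 nM, the comparison of these 3 libraries was kept descriptive. An exact permutation test over 3 libraries cannot go below a one-sided p of 0.333. Differences are therefore given on the log2 CPM scale (scaled by TMM, with a prior count of 2, which pulls low genes towards no change) and were set against the spread, which is the size of the difference between the 15 nM and 25 nM lines. A gene was called when the mean of these lines differed from the 10 nM line by at least 1 on the log2 scale, a 2-fold change, and by more than the spread. At this rule 23 genes (0.235% of those kept) were higher and 54 genes (0.551%) were lower at 15 and 25 nM, together 77 genes or 0.786%. The median gene differed by -0.003 with a median spread of 0.11. The 10 CPM filter was not even for both directions, since a gene close to 0 at 10 nM could be kept and a gene close to 0 at both 15 and 25 nM could not. A gene under 10 CPM at 10 nM was kept only through the 15 and 25 nM lines, so its direction follows from the filter. Among the genes called higher these were SPP1, MAGED1, S100A10, PPAP2C, COL5A1, GNB5, PPFIBP2, NNMT, RMRP and SLC30A4.

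At the edge of the rule, SLC30A4 was called higher with a log2 difference of 1.0025 and a spread of 0.51, and ID3 was just outside it at 0.9978 with a spread of 0.46. On the lower side COL4A2 was called at -1.01 and GSN was just outside at -0.98. Another 32 genes passed the size but differed more between the 15 nM and 25 nM lines than from the 10 nM line, and these are described separately.

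**Figure D1:**
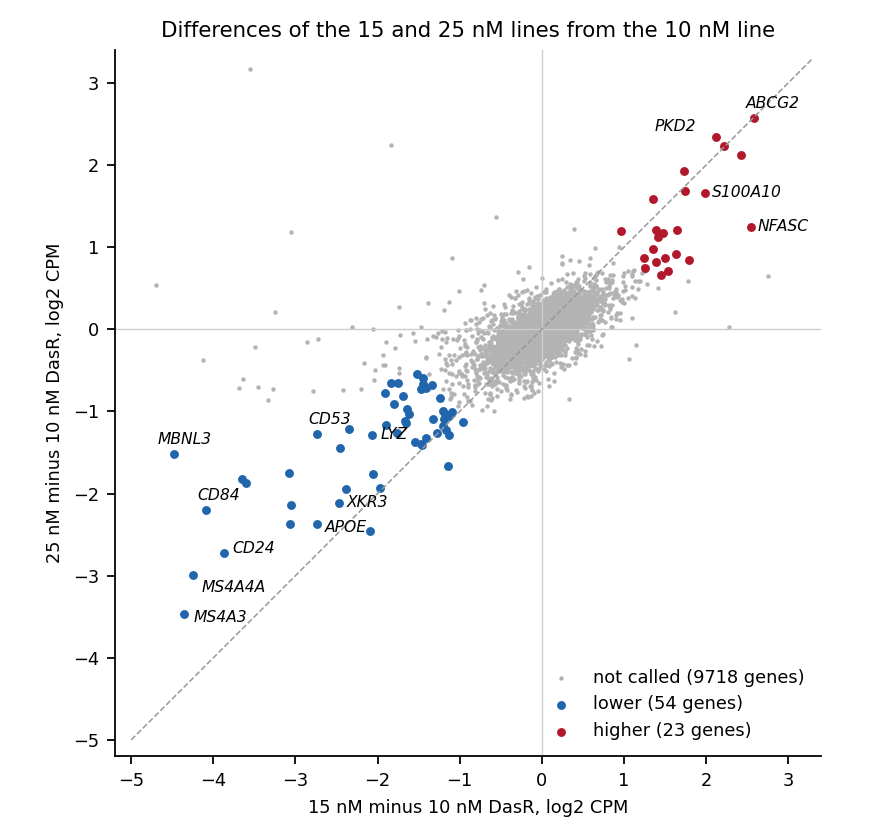
Each point is 1 of 9795 kept genes, placed by its log2 CPM difference from the 10 nM line in the 15 nM line (horizontal axis) and in the 25 nM line (vertical axis), with the dashed line marking equal differences. The 23 genes called higher (red) lay close to or below the line and the 54 called lower (blue) mostly above it, so that the 25 nM line was nearer to the 10 nM line than the 15 nM line was.

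The genes with the largest differences on the higher side were ABCG2 and 3 neighbors on chromosome 4. ABCG2 (chromosome 4, 89011302 to 89152780 in GRCh37, minus strand) stood at 512.1 CPM in the 10 nM line, 3122 CPM at 15 nM and 3089 CPM at 25 nM. The 15 nM and 25 nM lines were thus alike, at 3106 ± 22.9 CPM (SD, n = 2 lines), and 5.97-fold above the 10 nM line. The log2 difference was 2.58 with a spread of 0.004, the smallest spread beside its size among the 4 neighbors. ABCG2 was at 3.57 CPM in the drug naive line, 0.582 CPM with DMSO, 199.2 CPM at 50 nM and 2.41 CPM at 200 nM, so the 15 nM and 25 nM lines held the highest ABCG2 level of the 7.

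PPM1K, which encodes a mitochondrial phosphatase of branched chain amino acid breakdown, was at 775.6 CPM at 10 nM, 3694 CPM at 15 nM and 3684 CPM at 25 nM, 4.68-fold higher with a spread of 0.007. PKD2, which encodes the calcium channel polycystin-2, was at 335.5 CPM, 1491 CPM and 1717 CPM in the same order, 4.69-fold higher with a spread of 0.21. SPP1, which encodes the secreted protein osteopontin, was much less abundant, with 89, 499 and 289 counts, and was 4.85-fold higher with a spread of 0.30. All 4 were lower at 50 nM than at 10 nM, with PPM1K at 251.1 CPM, PKD2 at 146.8 CPM and SPP1 at 28 counts.

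These genes formed the only run of at least 4 neighboring kept genes called in 1 direction, and it spanned 309 kb (chromosome 4, 88896819 to 89205921). SPP1, at 3.20 CPM at 10 nM, was kept only through the 15 and 25 nM lines. Its direction thus follows from the filter and adds no support to the run. PKD2, ABCG2 and PPM1K were above 10 CPM in all 3 lines. Without SPP1 they fall short of the 4 genes asked of a run. Of 22 genes listed around ABCG2, 13 were kept, 4 were called higher (30.8%, SPP1 included) and none lower, beside 0.235% and 0.551% of all kept genes. The median of the 13 was 0.19 beside -0.003 for all kept genes, with 0.05 in the 15 nM line alone and 0.33 in the 25 nM line alone. The next kept genes on both sides were not called. NUDT9, the nearest kept gene before SPP1, differed by 0.19 with a spread of 0.29, and PIGY, after PPM1K, by 0.02 with a spread of 0.45. Between NUDT9 and SPP1 lie 4 genes of bone and tooth matrix proteins of the same family as osteopontin, all under 10 CPM in at least 2 of the 3 lines. Their counts at 10, 15 and 25 nM were 26, 110 and 116 for DSPP. For DMP1 they were 12, 79 and 55, for IBSP 28, 172 and 285, and for MEPE 27, 85 and 79. Each of these low genes had more counts at 15 and 25 nM than at 10 nM. They were not kept, and their counts are a description that supports no other result.

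**Figure D2:**
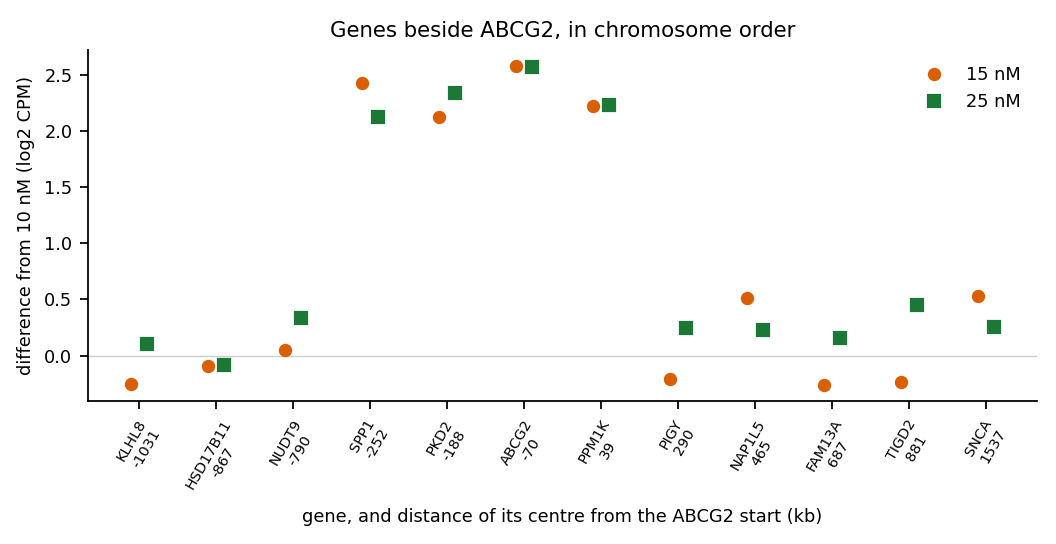
Log2 CPM difference from the 10 nM line in the 15 nM line (circles) and the 25 nM line (squares) for the 12 kept and placed genes listed around ABCG2, in chromosome order with the distance of the gene centre from the ABCG2 start in kb. SPP1, PKD2, ABCG2 and PPM1K lay above 2 in both lines and the other 8 genes lay between -0.27 and 0.53.

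The starts of these neighbors are unlike in sequence, and they are printed because the genes were higher together. Each line below holds the 150 bases before the annotated start in RefSeq (GRCh38.p14, a later build than the hg19 of the counts), 5′ to 3′, in lower case with GAGGAA or its reverse complement TTCCTC in capitals. ABCG2 has 5 annotated starts and is not printed.
SPP1 (chr4:87975564-87975713, plus strand): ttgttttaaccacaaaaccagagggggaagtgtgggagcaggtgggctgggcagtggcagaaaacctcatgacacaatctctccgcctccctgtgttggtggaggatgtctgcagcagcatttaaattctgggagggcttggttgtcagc
PKD2 (chr4:88007485-88007634, plus strand): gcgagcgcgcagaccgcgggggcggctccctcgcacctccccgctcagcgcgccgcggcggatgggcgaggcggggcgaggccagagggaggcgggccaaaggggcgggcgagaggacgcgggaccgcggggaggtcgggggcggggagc
PPM1K (chr4:88284562-88284711, minus strand): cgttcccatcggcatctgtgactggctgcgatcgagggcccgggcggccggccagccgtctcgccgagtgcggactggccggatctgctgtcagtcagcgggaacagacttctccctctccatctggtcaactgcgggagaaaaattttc
G and C made up 53.3% of the SPP1 stretch, 82.7% of PKD2 and 63.3% of PPM1K, and none of the 3 held the motif.

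Of 28 ABC transporter genes 20 were kept, and ABCG2 was the only one called, beside 0.786% of all kept genes. At that share no further call is usual in a list of this size. The other kept transporters lay between -0.28 for ABCC10 and 0.38 for ABCB8. ABCB1, the other well known drug efflux pump, had 46, 10 and 32 counts in the 10, 15 and 25 nM lines and was not kept.

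The other genes called higher are described singly. Of 14 kept genes of the list of integrins and adhesion none was called, with a median of -0.04. Over all kept genes 0.786% were called, so no call is usual in a list of this size. NFASC, which encodes the adhesion protein neurofascin, was at 12.9 CPM at 10 nM, 77.7 CPM at 15 nM and 31.3 CPM at 25 nM, with a log2 difference of 1.90 and a wide spread of 1.30. VCAN, the proteoglycan versican, was at 33.0 CPM, 105.7 CPM and 77.4 CPM, a difference of 1.43 with a spread of 0.44. COL5A1, a fibrillar collagen chain, differed by 1.47 with a spread of 0.24. THBS1, which encodes thrombospondin-1 and was the 1 called gene among 4 kept of 15 megakaryocyte genes, was at 16.6 CPM, 45.4 CPM and 36.9 CPM, a difference of 1.27. S100A10, a partner of annexin A2, had 145, 593 and 337 counts and differed by 1.82, while the other 2 kept S100 genes, S100A11 and S100A13, differed by -0.19 and -0.20. PPAP2C, a lipid phosphate phosphatase, had 85, 296 and 203 counts and differed by 1.71, and GNB5, a G protein beta subunit, differed by 1.32. At 10 nM COL5A1, S100A10, PPAP2C and GNB5 were at 5.68, 5.21, 3.06 and 4.89 CPM. They were kept only through the 15 and 25 nM lines, so their direction follows from the filter.

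MAGE genes encode cancer-testis antigens, proteins normally made in germ cells and often switched on in tumors. MAGEC1 was at 108.2 CPM at 10 nM, 281.3 CPM at 15 nM and 216.1 CPM at 25 nM, MAGEB2 at 26.4, 84.1 and 50.3 CPM, and MAGEB1 at 12.9, 45.6 and 23.4 CPM. The log2 differences were 1.16, 1.28 and 1.31. MAGEB2 and MAGEB1 are neighbors on chromosome X within 36 kb, and both were lower at 50 nM than in any of the 3 lines, with 99 and 59 counts. MAGED1, a relative that many tissues make, was at 3.16, 10.9 and 12.4 CPM and differed by 1.83. MAGED1 was kept only through the 15 and 25 nM lines, so its direction follows from the filter. Of 18 kept X-linked cancer-testis genes 3 were called higher and 1 lower, with a median of 0.11, beside 0.786% called and a median of -0.003 over all kept genes. Their median was 0.23 in the 15 nM line alone and 0.02 in the 25 nM line alone. MAGE family members are similar in sequence and reads can be shared between them, which the counting could split. The lower gene was SSX1, with 2810 counts at 10 nM, 339 at 15 nM and 607 at 25 nM, a log2 difference of -2.41 with a spread of 1.32. PAGE1 had 379, 1888 and 282 counts, so the 15 nM line stood apart from the other two.

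MS4A3, a membrane protein of granulocyte precursors, had the largest difference, from 238.2 CPM at 10 nM to 11.8 CPM at 15 nM and 21.7 CPM at 25 nM. That was 15.1-fold lower, a log2 difference of -3.91 with a spread of 0.89. Its neighbor MS4A4A, a related membrane protein of macrophages and mast cells, was at 89.6 CPM, 4.74 CPM and 11.3 CPM, 12.3-fold lower with a spread of 1.25. The genes lie within 261 kb on chromosome 11 (59824060 to 60085553 in GRCh37). Their neighbors among kept genes were MRPL16, at -0.94 and not called, and CCDC86, at 0.24.

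The stretches before the starts of this pair are shown because the genes led the lower group. GAGGAA, the core that the myeloid factor PU.1 is known to bind, is in capitals, in 150 bases from RefSeq (GRCh38.p14), 5′ to 3′.
MS4A3 (chr11:60056515-60056664, plus strand): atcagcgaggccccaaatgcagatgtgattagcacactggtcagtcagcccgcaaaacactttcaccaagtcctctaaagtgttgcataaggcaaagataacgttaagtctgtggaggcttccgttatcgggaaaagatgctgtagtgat
MS4A4A (chr11:60280516-60280665, plus strand): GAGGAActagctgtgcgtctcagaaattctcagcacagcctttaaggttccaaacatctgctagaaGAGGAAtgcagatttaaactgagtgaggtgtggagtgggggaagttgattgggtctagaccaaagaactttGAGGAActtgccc
MS4A4A held 3 matches and MS4A3 none. In the 250 bases before the start, on either strand, 10 of the 31 lower genes with a RefSeq promoter held the motif (32.3%), as did 4 of 19 higher genes (21.1%), 22.1% of all kept genes and 23.4% of all promoters. A match is a description of the letters only, and this motif was chosen after the genes were seen.

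CD84, a receptor by which blood cells bind each other, had 2157, 127 and 341 counts in the 10, 15 and 25 nM lines and was 8.86-fold lower with a spread of 1.89. CD24, a small glycoprotein of the cell surface, was at 87.7, 6.03 and 13.3 CPM and 9.85-fold lower, though near-identical copies of this gene make its count uncertain. CPVL, a carboxypeptidase of macrophages, was at 104.3, 8.66 and 28.8 CPM and 6.68-fold lower with a spread of 1.73. In all 3 genes the 25 nM line lay above the 15 nM line.

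HHLA2, a member of the B7 family of immune ligands, went from 606.5 CPM to 74.4 CPM and 139.1 CPM, 6.05-fold lower. APOE, the lipid carrier apolipoprotein E, had 74.2, 11.2 and 14.5 CPM and was 5.87-fold lower with a spread of only 0.38. UNC5C, a netrin receptor, had 982, 78 and 201 counts and differed by -2.74 with a spread of 1.82. MBNL3, a splicing regulator, had 1778, 79 and 454 counts, and its difference of -3.00 barely exceeded its spread of 2.97.

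LYZ, which encodes lysozyme, was the only kept gene of 11 markers of monocytes and granulocytes. It had 2817 counts at 10 nM, 684 at 15 nM and 844 at 25 nM, a log2 difference of -1.68 with a spread of 0.79. The summed level of the 11 markers was 116, 30.4 and 47.4 CPM in the 10, 15 and 25 nM lines, LYZ being most of it, and MPO and ELANE were at 0 counts in all 3 lines. Outside the 3 lines the sum was 87.2 CPM in the drug naive line, 66.2 CPM with DMSO, 100.6 CPM at 50 nM and 103.3 CPM at 200 nM, so the 15 nM and 25 nM lines were the lowest of the 7. Whether a change in the make-up of the cultures had a part in these lower levels was not tested. Further lower genes, picked out after their values were seen, were CD53, a tetraspanin of white blood cells, with 1711, 260 and 515 counts, and EMR2, an adhesion receptor of myeloid cells, with 694, 137 and 217 counts. SPI1, which encodes PU.1, had 547, 172 and 226 counts and differed by -1.25 with a spread of 0.87.

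XKR3, on chromosome 22 (17264302 to 17306301 in GRCh37), was at 585.1 CPM at 10 nM, 107.4 CPM at 15 nM and 136.4 CPM at 25 nM, 4.91-fold lower with a spread of 0.36. K562 cells are known to carry a NUP214::XKR3 fusion. NUP214, a nuclear pore protein on chromosome 9 beside ABL1, was at 4499 CPM, 2158 CPM and 2266 CPM, 2.07-fold lower with a spread of 0.08. Both fusion partners were thus lower in both lines, and neither was back at the level of the drug naive line, at 24.3 CPM for XKR3 and 742.4 CPM for NUP214. TPTEP1, a pseudogene, went from 127787 counts to 15525 and 18001, but relatives that share its sequence make the count uncertain. TPTE2, one such relative, was also called lower.

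The genes next to NUP214 did not share the size of its change. Of 10 kept genes of 16 around ABL1, NUP214 was the only one called, and the median was -0.12. Over all kept genes 0.786% were called, so no further call is usual in a list of this size. BCR was at 1379 CPM at 10 nM, 1097 CPM at 15 nM and 933.5 CPM at 25 nM, a log2 difference of -0.47 with a spread of 0.22. ABL1 was at 2557 CPM, 2021 CPM and 1686 CPM, a difference of -0.49 with a spread of 0.25. BCR and ABL1 were thus lower in both lines, lowest at 25 nM, by less than 2-fold and more than the spread, while none of the 13 kept genes listed around BCR was called (median -0.08). The list did not hold FBXW4P1, a pseudogene inside the BCR interval (chromosome 22, 23604954 to 23607192 in GRCh37), which was called lower with 1428, 746 and 474 counts, a difference of -1.05 with a spread of 0.17. It overlaps BCR, so its reads may be shared with it, and it was named after its values were seen. FUBP3 before ABL1 differed by -0.15 and PRRC2B after NUP214 by -0.15.

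Of the genes of the red cell lists, 2 were called, both lower, beside 0.786% of all kept genes. Of 7 kept globin genes none was called, and the median was -0.03, with 0.13 in the 15 nM line alone and -0.12 in the 25 nM line alone. The fetal globin HBG2 had 84469, 63570 and 38435 counts, a log2 difference of -0.56 with a spread of 0.24, while the embryonic globin HBE1 was higher mainly at 15 nM, with 13141, 45958 and 14443 counts. SLC4A1, the anion exchanger band 3 of the red cell membrane, was the 1 called of 19 kept membrane genes and was lower, with 138.5 CPM at 10 nM, 64.5 CPM at 15 nM and 57.6 CPM at 25 nM, a difference of -1.21 and a spread of 0.15. SLC40A1, the iron exporter ferroportin, was the 1 called of 18 kept genes of heme and iron and was lower, with 1359, 397 and 529 counts and a difference of -1.35. Heme and iron genes were below the 10 nM line in both lines in 12 of 18 (3 above, median -0.10) and erythroid factors in 8 of 14 (2 above, median -0.13), beside 37.4% of all kept genes. With the 15 nM or the 25 nM line alone the heme and iron median was -0.04 or -0.13 and that of erythroid factors -0.18 or -0.05. CA1, a carbonic anhydrase of red cells that none of these lists held and that was named after its values were seen, was called lower at 131.0, 31.2 and 24.2 CPM, a difference of -2.27 with a spread of 0.35. Among 14 kept erythroid factors none was called, and MYB, which drives early precursors, had the largest size, at -0.76 with a spread of 0.49. GATA1 differed by 0.24 with a spread of 0.09.

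Several pathways leaned to one side without any called gene, beside 0.786% called of all kept genes. Of 23 kept genes of cholesterol synthesis 20 were above the 10 nM line in both lines, with a median of 0.21, beside 3547 of 9795 kept genes. HMGCS1, an early enzyme of the pathway, differed by 0.58 with a spread of 0.11, and INSIG1, which holds the pathway in check, by 0.49 with a spread of 0.07. Genes of HLA class I presentation were below the 10 nM line in both lines in 5 of 6 kept, with a median of -0.40, and HLA-E had 714, 370 and 358 counts. Cytosolic ribosomal proteins were below it in 39 of 53, with a small median of -0.10, beside 3663 of all 9795 kept genes. With the 15 nM line alone their median was -0.06 and with the 25 nM line alone -0.12. Genes of ribosome assembly were above it in 30 of 54 (median 0.10), with a median of 0.03 at 15 nM and 0.12 at 25 nM.

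Medians stayed within 0.05 of 0 for mitosis (0.00), oxidative phosphorylation (0.01), ER chaperones (0.04) and the ATF4 amino acid response (-0.02). None of the 9 kept SRC family and other dasatinib target kinases was called (median -0.17), nor any of 11 kept BCL2 family genes (0.09) or 14 kept genes of ERK feedback (0.07) or of STAT5 targets (0.10). Over all kept genes 0.786% were called, so no call is usual in lists of this size and says little about these families. Glycolysis (0.05), cytosolic heat shock (0.08), NRF2 antioxidant genes (-0.04), G1/S and DNA replication (0.04), lysosome and autophagy (0.04) and interferon response (-0.22, 6 genes kept) also held no called gene. With 1 line alone these medians lay between -0.22 and 0.18, and those of mitosis, oxidative phosphorylation, ER chaperones, the ATF4 response, ERK feedback, NRF2 and lysosome genes differed in sign between the lines. The reference gene GUSB differed by -0.08 with a spread of 0.16, and MYC by -0.09 with a spread of 0.08. Of single genes followed through the series, SMO, a Hedgehog receptor, differed by -0.10 with a spread of 0.75, FZD3, a Wnt receptor, by -0.12 with a spread of 0.13, MAPK4 by 0.19 with a spread of 0.76, NEFH by -0.05, ENAH by 0.31 and WNK2 by 0.35. RBM47 and G0S2 were not kept, with 26, 11 and 9 counts and 21, 14 and 7 counts.

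The 15 nM line stood farther from the 10 nM line than the 25 nM line did. Between 10 nM and 15 nM, 191 genes (1.95%) differed by at least 2-fold, 141 of them lower at 15 nM. Between 10 nM and 25 nM, 60 genes (0.613%) did so, 40 of them lower at 25 nM. Between 15 nM and 25 nM, 81 genes (0.827%) did so, and 73 of these were higher at 25 nM. The SD of the log2 differences over all kept genes was 0.38 for 15 against 10 nM, 0.24 for 25 against 10 nM and 0.29 for 25 against 15 nM. Of the called genes, the 25 nM line lay between the other 2 in 18 of 23 higher and in 49 of 54 lower (90.7%). The rule leaves only the 15 nM or the 25 nM line in the middle, so the share to set beside these is that of the 7210 kept genes whose 10 nM level lay outside the range of the other lines, 64.2%. Non-coding RNA was meant to be depleted in the library preparation, and 3 small non-coding RNAs named after their values were seen were highest at 15 nM among the 3 lines. RMRP had 274, 739 and 354 counts and SNORD3A 499, 1212 and 666, both called higher, and SNORD3C had 432, 2983 and 497, though SNORD3 copies share sequence and their counts are uncertain. The part of such a difference between libraries in the other results was not tested.

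Of the 32 genes past the size but not over the spread, which were set apart because the 15 and 25 nM lines differ in them, 29 were lower, all 29 were at least 2-fold below the 10 nM line at 15 nM, and none was so at 25 nM. In all 29 the 50 nM line was above the 10 nM line, beside 49.3% of all kept genes. In 27 the 15 nM line was the lowest of the 7, beside 19.5% of all kept genes, which the choice of genes low at 15 nM largely fixes. The following were named after their values were seen. SYK, a kinase below immune receptors, had 565, 31, 317 and 1125 counts in the 10, 15, 25 and 50 nM lines. INPP5D, the lipid phosphatase SHIP1, had 1111, 86, 492 and 1558 counts in this order, and WAS, which drives actin assembly, had 651, 64, 262 and 765 counts. VAV1 and DOCK2, exchange factors of blood cells, had 566, 124, 250 and 724 counts and 2379, 250, 1053 and 3273 counts. In each of these 5 genes the 15 nM line was the lowest of the 7. The widest spread among all kept genes was that of PTPRC, the blood cell phosphatase CD45, with 311, 25, 2064 and 6350 counts in these 4 lines.

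The levels in the other 4 lines were not used for the calls. Of the 23 higher genes, 17 had their highest 2 levels of the 7 at 15 and 25 nM (73.9%), beside 12.8% of all kept genes. Against the 10 nM line their median was -2.49 in the drug naive line, -2.94 with DMSO, and 1.54, 1.197, -1.36 and -3.05 in the 15, 25, 50 and 200 nM lines. In 16 of the 23 (69.6%) the 10 nM line was already at least 2-fold above both controls, beside 4.24% of all kept genes. The 6 genes whose 15 and 25 nM levels were not the highest 2 were MAGED1, PPAP2C, COL5A1, MAGEB2, THBS1 and SNORD3A. MAGED1 was at 32.7 CPM in the drug naive line and 46.6 CPM at 200 nM against 3.16 CPM at 10 nM, and THBS1 was highest at 50 nM with 52.8 CPM. The choice of genes on high 15 and 25 nM values fixes part of the share of 73.9%.

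Of the 54 lower genes, 30 had their highest level of the 7 at 10 nM (55.6%), beside 8.73% of all kept genes, and 18 had their lowest 2 levels at 15 and 25 nM (33.3%), beside 13.5%. Their median against the 10 nM line was -1.09 in the drug naive line, -1.61 with DMSO, and -1.67, -1.24, -0.47 and -0.92 in the 15, 25, 50 and 200 nM lines. At 50 nM 52 of the 54 (96.3%) were above the 25 nM line, beside 49.3% of all kept genes. The choice of genes on high 10 nM and low 15 and 25 nM values fixes part of these shares. MS4A3 was at 34.8 CPM in the drug naive line, 59.8 CPM at 50 nM and 6.21 CPM at 200 nM. MS4A4A was at 1.76 CPM, 30.7 CPM and 2.50 CPM in the same lines. CD53 and LYZ showed another pattern, with 144.7 and 54.7 CPM in the drug naive line and 110.3 and 98.9 CPM at 200 nM.

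**Figure D3:**
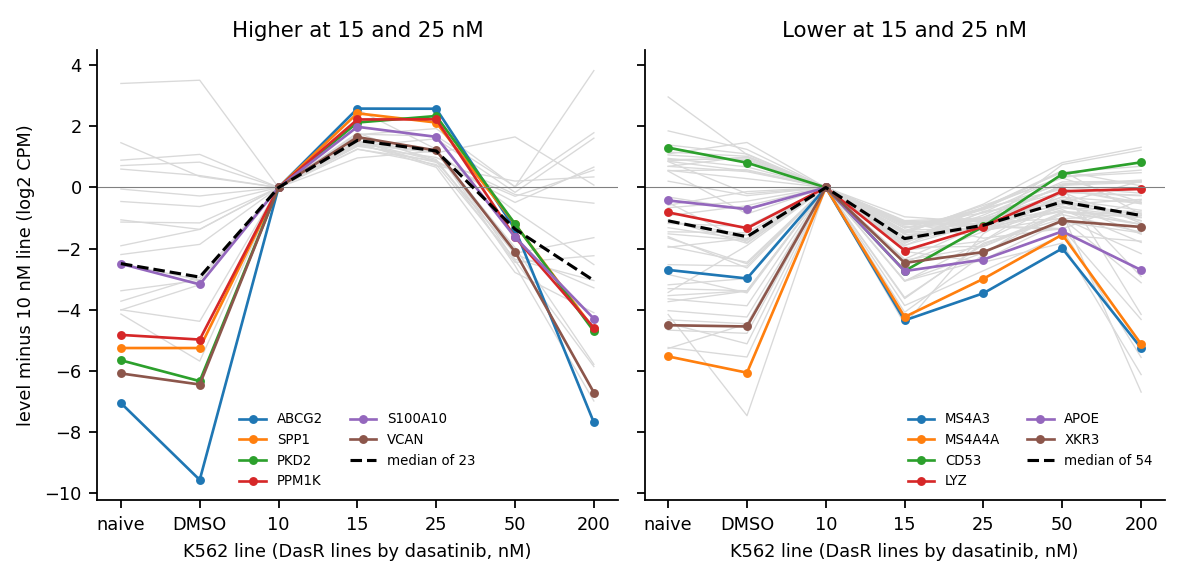
Level of each called gene in the 7 K562 lines as log2 CPM minus that of the 10 nM line, for the 23 genes called higher (left) and the 54 called lower (right), with single genes in grey, named genes in color and the median as a dashed line. The median of the higher genes was 1.54 at 15 nM and -1.36 at 50 nM, and that of the lower genes was -1.67 at 15 nM and -0.47 at 50 nM.

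Of the 77 called genes 71 could be placed, and apart from the run at ABCG2 they were scattered, with 3 further pairs of neighbors. A shift over whole stretches of chromosomes was seen in genes that were mostly not called, and the stretches were chosen after the chromosome medians had been seen. On chromosome 15 the 313 kept genes had a median log2 difference of 0.28, with 0.36 at 15 nM and 0.21 at 25 nM. Of these genes 262 (83.7%) were above the 10 nM line in both lines, beside 36.4% of all 9496 placed genes. All 7 windows of 10 Mb on the chromosome with at least 15 genes had medians between 0.23 and 0.34. On chromosome 15, 3 genes (0.958%) were called, GNB5, THBS1 and SLC30A4, all higher, beside 0.786% of all kept genes. GNB5 and SLC30A4, at 4.89 and 7.44 CPM at 10 nM, were kept only through the 15 and 25 nM lines. Their direction follows from the filter and adds no support to the shift of the chromosome.

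On chromosome 4 the genes from 100 Mb to the end, which lie beyond ABCG2, had a median of -0.30, with -0.39 at 15 nM and -0.21 at 25 nM. Here 114 of 132 genes (86.4%) were below the 10 nM line in both lines. Before 80 Mb, on the other side of ABCG2, the median of 144 genes was -0.03. On chromosome 17 from 60 Mb on, 137 of 167 genes (82.0%) were above the 10 nM line in both, with a median of 0.20, while the 407 genes before 60 Mb had a median of 0.02. On chromosome 7 the median was -0.20 in the 121 genes before 40 Mb and 0.18 in the 122 genes from 120 Mb on. Over the genome, 15 of 226 windows had a median of at least 0.2 in size, 10 higher and 5 lower, and 7 of the 10 higher ones were on chromosome 15.

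**Figure D4:**
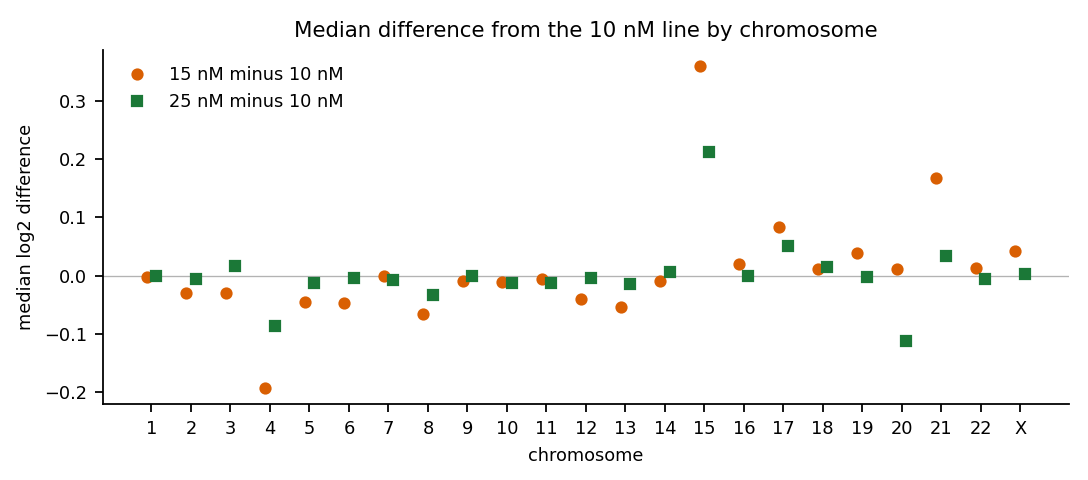
Median log2 CPM difference of kept genes from the 10 nM line for each chromosome, in the 15 nM line (circles) and the 25 nM line (squares). Chromosome 15 stood highest in both lines, at 0.36 and 0.21, and chromosome 4 was lowest at 15 nM.

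Set against the mean of the drug naive and DMSO lines, these blocks differed in which line had moved. For chromosome 15 the medians in the 10, 15, 25, 50 and 200 nM lines were -0.33, 0.02, -0.12, -0.50 and -0.59, so the 15 nM line was at the level of the controls and the 10 nM line below it. For chromosome 4 from 100 Mb they were -0.06, -0.49, -0.30, 0.00 and -0.03 in the same order, so the 15 nM and 25 nM lines were the ones apart. For chromosome 17 from 60 Mb they were 0.14, 0.40, 0.29, 0.04 and 0.11. In each of these blocks the 25 nM line lay between the 10 nM and 15 nM lines. DNA was not analysed here, and copy number was not tested.

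**Figure D5:**
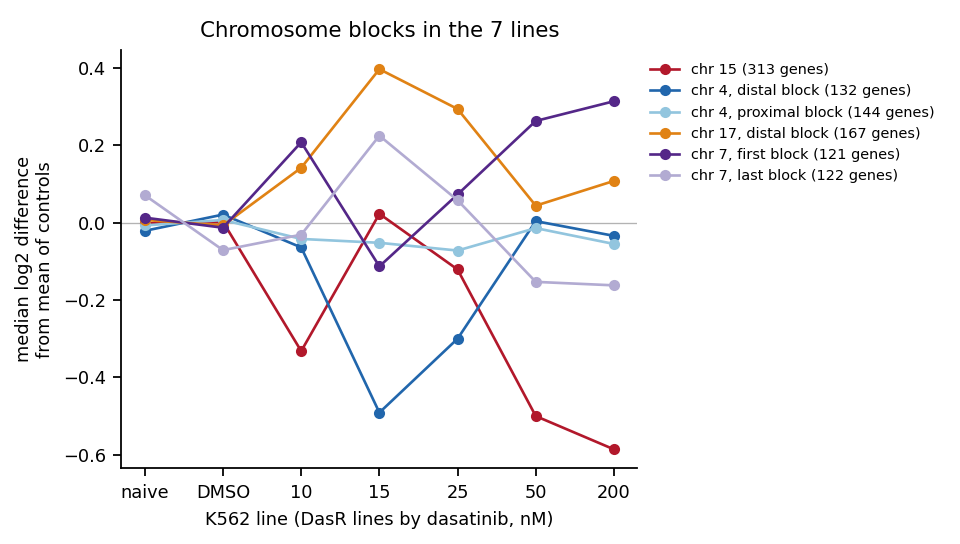
Median log2 CPM difference from the mean of the drug naive and DMSO lines for genes of 6 chromosome blocks in the 7 K562 lines. Chromosome 15 was lowest at 10, 50 and 200 nM and near 0 at 15 nM, and the distal block of chromosome 4 was low only at 15 and 25 nM, at -0.49 and -0.30.

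As an alternative to the size rule, the 7 libraries were fitted together in 4 groups (controls, 10 nM, 15 and 25 nM, 50 and 200 nM), under which the lone 10 nM library is assumed to vary like the lines of the other groups. In the quasi-likelihood test of edgeR, after Benjamini-Hochberg adjustment, 1 gene passed an FDR of 0.05, XKR3, at 0.0286, and 476 genes had an unadjusted p under 0.05. By DESeq2 40 genes passed, 5 higher and 35 lower, and 25 of the 77 called genes were among them. MAGEC1, with an adjusted p of 6.53e-05 by DESeq2, was among the higher ones, and APOE, at 1.91e-05, HHLA2, at 1.13e-10, and LYZ, at 0.00122, among the lower ones. ABCG2 did not pass in either, with an adjusted p of 0.999 by edgeR and 1 by DESeq2, and its level within the pooled 50 and 200 nM group ranged from 2.41 to 199.2 CPM.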

How the data were processed

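The authors made directional libraries, depleted of ribosomal and non-coding RNA, from 7 K562 lines, 1 library each. Reads were aligned by STAR to hg19 per the methods of the study, and the submitters' processing notes name FastQC, featureCounts and edgeR. The deposited table holds raw counts of reads per gene for 25702 gene IDs, without normalization, and whether counting used strand is not given in the sources used here. Deposited tables of the authors' own comparisons hold fold changes and p-values, which were not used, and gene names, which were. The count table held 0 columns of samples other than these.

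The 10, 15 and 25 nM DasR counts were scaled by TMM in edgeR 4.0.16 (R 4.3.3). CPM in the text are scaled to the library total without TMM. Genes with 3 counts or fewer count as at the floor, 0.108 to 0.150 CPM, and no called gene was there in its low lines. Floors cover counting error only. The named genes were the 12 largest called differences in each direction, up to 4 called genes of each list, and a fixed list of single genes, and all other genes named were chosen after their values were seen, as examples of a list or count. The members and lists were chosen with earlier results of these data known. The calling rule was tested on simulated data, counts drawn with known changes. Pooled fits used edgeR and DESeq2 1.42.0. Symbols came from the deposited tables for 10285 IDs and from RefSeq for 13453, and 22545 IDs were placed on GRCh37. Other scalings, prior counts, filters, sizes and leaving out each line were tried.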

Additional observations from a re-analysis of the deposited data

How the results depend on the processing

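With 1 library per dose, the spread between the 15 and 25 nM lines was the only error, and it mixes dose with library. Against 23 higher and 54 lower genes, leaving out the 15 or the 25 nM line gave 20 to 50 higher and 40 to 141 lower genes, the larger numbers with the 15 nM line alone. No filter on low counts gave 612 and 713, 1 CPM in 2 libraries 161 and 183, and 10 CPM in 1 library 40 and 87. A difference of over 2 times the spread gave 15 and 34, a size of 1.5-fold gave 97 and 154, and a log2 size of 2 gave 4 and 15. With no condition on the spread 83 genes were lower. The edgeR fit of 7 libraries gave 0 and 1 genes (476 at an unadjusted p under 0.05 in either direction) and DESeq2 5 and 35. The ABCG2 difference was 2.60 by library total, 2.56 in thinned libraries and 2.58 without either line. Genes at least 2-fold apart for 15 against 10, 25 against 10 and 25 against 15 nM numbered 2245, 1968 and 2016 with no filter, 701, 370 and 420 at 1 CPM, and 295, 120 and 147 with 10 CPM in 1 library. Of 42 list medians 30 to 36 kept their sign when 1 line was left out. Without the 15 nM line 23 of the other 76 called genes fell under a 2-fold difference, and none of the 76 changed direction in any alternative tried. The chromosome blocks kept their direction in all alternatives, which were added after seeing the data. Without the 15 nM line the median was 0.21 for chromosome 15 and -0.12 for chromosome 7 before 40 Mb.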

Other observations

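A filter of 10 CPM in any 1 of the 3 libraries added 50 called genes that the main filter had left out, 33 of them lower and 17 higher at 15 and 25 nM, and they were named after their values were seen. PRG2, the major basic protein of eosinophil granules, had 2216, 57 and 122 counts in the 10, 15 and 25 nM lines, with 790 in the drug naive line and 102 at 200 nM. CLC, which forms the Charcot-Leyden crystals of eosinophils, had 822, 1 and 34 counts at 10, 15 and 25 nM, and 2 and 1 in the drug naive and DMSO lines. ITGB2, the beta chain of white blood cell integrins, had 318, 10 and 15 counts, and VWF, the von Willebrand factor of platelets and vessels, had 1028, 108 and 159. All the genes given from this filter, those that follow included, reached 10 CPM in only 1 of the 3 libraries, the 10 nM library for the lower ones and the 15 or 25 nM library for the higher ones, so their direction follows from how they were chosen and supports no other result.

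MS4A4E, which lies in the same gene cluster as MS4A3 and MS4A4A, had 290, 10 and 19 counts. GPR85, a receptor mainly of the brain, had 378, 26 and 31 counts, and ROBO2, a guidance receptor, 367, 49 and 33. Among the higher ones CLCN4, a chloride transporter, had 40, 188 and 254 counts, and KIF26A, a kinesin relative, had 46, 321 and 123. IBSP, between NUDT9 and SPP1 on chromosome 4, had 28, 172 and 285 counts.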
